A study of Saccharomyces cerevisiae with 2 samples.

Results

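The flocculin genes of *S. cerevisiae* are FLO1, FLO5, FLO9, FLO10 and FLO11, 5 of the 6002 protein-coding genes of the 16 nuclear chromosomes in the R64 annotation. The 5 genes were chosen with earlier results of these data known. For each gene, all cytosines listed from 3500 bp before the start codon to 300 bp after the stop codon were taken, whatever their level. These stretches held 2800 of the 900211 nuclear cytosines listed for CCMT and 2250 of the 839016 listed for GCMT. In NOMe-Seq, a DNA methyltransferase added to nuclei methylates the target cytosines that the chromatin leaves accessible, and bisulfite sequencing then reads the methylation. Nuclei came from the S288C strain grown at 30 °C in YPD medium, Zymolyase-treated and fixed with formaldehyde (1% by the labels). They were permeabilized with NP40 (0.1% by the labels) and incubated at 37 °C for 1 h with 1 of the enzymes. CCMT is an N-terminally truncated M.CviQIX and modifies the first C of CC, and GCMT is M.CviPI and modifies the C of GC. The 2 libraries shared strain, growth and fixation and differed in the enzyme, with 1 library per enzyme. No replicate error can therefore be given and no test between the libraries was possible. Read counts of a region are summed over its cytosines, so a read that covers several listed cytosines is counted at each. Intervals in the text are exact Clopper-Pearson 95% intervals, for levels over these counts, which may also include PCR copies. They treat the counts as independent, so they cover counting error only and can be too narrow. No untreated yeast library was analysed here, and a level is therefore not corrected for cytosines that escaped bisulfite conversion.

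Flocculins are large cell wall proteins that make yeast cells adhere. Each carries an N-terminal domain at the cell surface, a long stalk of serine- and threonine-rich repeats and a C-terminal signal for a GPI anchor. FLO1, FLO5 and FLO9 encode lectin-like proteins that bind mannose chains on neighbouring cells and give flocculation, FLO10 can do so and also takes part in filamentous growth, and FLO11 (also MUC1) serves invasive and pseudohyphal growth, biofilms and adhesion to surfaces. The genes are known for long upstream regions on which the activators Flo8, Mss11, Tec1 and Ste12 and the repressors Sfl1, Nrg1 and Tup1-Cyc8 act, and for being silent in most cells of laboratory strains. FLO8 is annotated as a pseudogene in this reference. Transcripts were not measured in these libraries.

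The methylation level of a region was the number of methylated reads divided by all reads over its listed cytosines. Over the nuclear chromosomes it was 9.53% for CCMT and 10.4% for GCMT, at a median coverage of 31 and 13 reads per listed cytosine. A 100-bp step was called open if its level reached 2 times these nuclear levels or more in both libraries, with at least 3 listed cytosines and 30 reads in each. Positions are given relative to the first base of the start codon, which is 0. The step of each gene that stood highest by the smaller of its 2 folds is printed below. The open upstream steps lay away from the start codon of the flocculin gene. For FLO5 and FLO11 the printed step is nearer to the start codon of a neighbouring gene. Sequences are from the R64 genome (the same as sacCer3, the build of the files), in the direction of the gene. Capitals mark CC, GG and GC, the dinucleotides that hold the target cytosines of both enzymes on either strand.
FLO1, −800 to −701, chrI:202603-202702, plus strand: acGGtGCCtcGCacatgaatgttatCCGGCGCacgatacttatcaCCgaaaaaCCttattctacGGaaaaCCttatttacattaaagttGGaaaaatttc
FLO5, −3400 to −3301, chrVIII:521992-522091, plus strand: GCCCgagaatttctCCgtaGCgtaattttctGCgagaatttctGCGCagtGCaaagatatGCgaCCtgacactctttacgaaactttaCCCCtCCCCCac
FLO9, −800 to −701, chrI:28669-28768, minus strand: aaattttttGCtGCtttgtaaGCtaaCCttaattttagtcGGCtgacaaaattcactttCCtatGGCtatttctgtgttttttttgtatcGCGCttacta
FLO10, −900 to −801, chrXI:645456-645555, plus strand: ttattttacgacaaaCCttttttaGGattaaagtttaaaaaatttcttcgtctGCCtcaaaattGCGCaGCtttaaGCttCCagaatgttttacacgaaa
FLO11, −1300 to −1201, chrIX:394876-394975, minus strand: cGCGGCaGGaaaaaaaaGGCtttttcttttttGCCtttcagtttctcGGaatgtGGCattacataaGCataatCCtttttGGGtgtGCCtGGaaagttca

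The accessible DNA upstream of the flocculin genes lay far from the start codon, in a few steps per gene. Of 152 upstream steps measured in both libraries, 12 were open (7.89%), against 8.15% of the upstream steps of all nuclear protein-coding genes, so the share itself is that of an ordinary gene. The share was 6.09% for 671 genes starting within 50 kb of a chromosome end and 12.3% for 224 genes with at least 2 kb of DNA outside protein-coding genes upstream. Of the 25 steps measured between −600 and −1, none was open. The highest by the smaller of its 2 folds stood at 1.17 times the nuclear level. In the GCMT library alone, the step from −500 to −401 of FLO1 reached 1.72 times. Over all genes 20% of the steps in this stretch were open, over the genes near chromosome ends 15% and over the genes with long upstream DNA 19.5%. The nearest open step, at FLO9, ends at −601, so the absence of open steps depends on where the edge at −600 was set. The comparison with these shares is therefore a description only. Upstream stretches of neighbouring genes overlap, so steps of different genes can share bases.

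**Figure D1:**
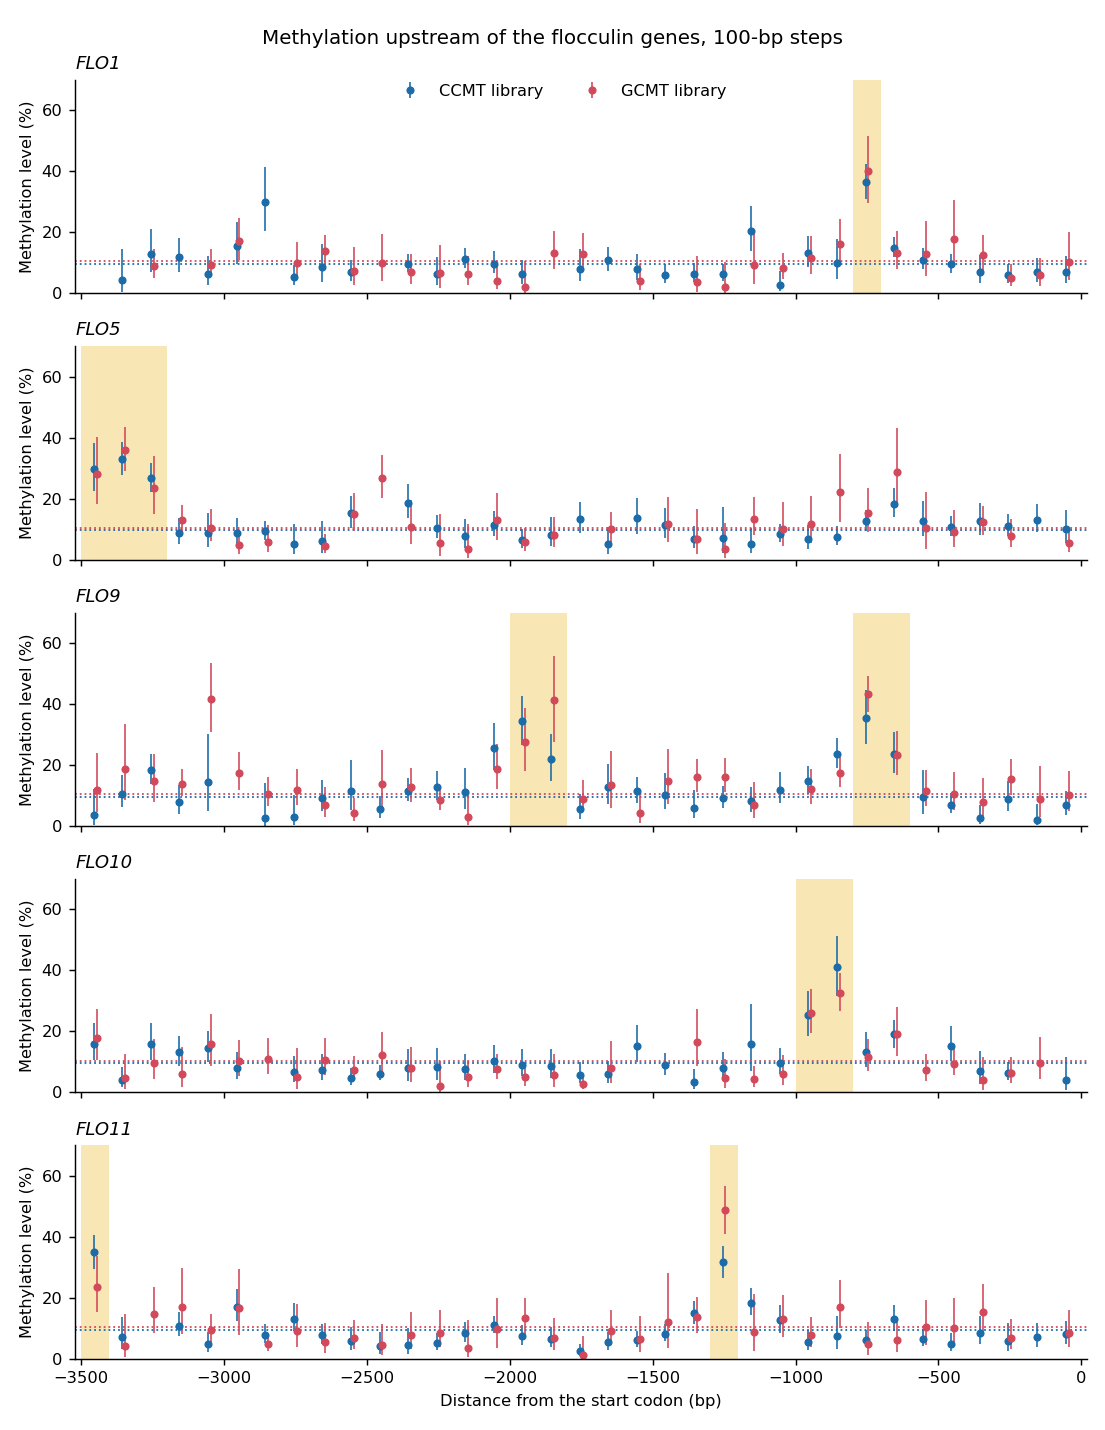
Methylation level (%) of 100-bp steps against the distance from the start codon (bp) for each gene, with exact 95% intervals as bars, the nuclear levels (9.53% for CCMT, 10.4% for GCMT) as dotted lines and open steps shaded. Steps with fewer than 3 listed cytosines or 30 reads are left out of a library, and the shaded steps lie between −3500 and −601 with none nearer the start codon.

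FLO1 (YAR050W, chromosome I, 203403 to 208016, plus strand) had 1 open step of 27 measured. From −800 to −701 the level was 36.6% (31–42.5) for CCMT over 284 reads and 40.2% (29.6–51.7) for GCMT over 82 reads, and the lower of the 2 folds was 3.84, the highest of any upstream step of the 5 genes. Most of the remaining upstream DNA stayed near or under the nuclear levels in both libraries. The step from −2900 to −2801 had 30% (20.3–41.3) and 29.7% (15.9–47) but holds only 2 GC cytosines, under the minimum for a call. The step from −3000 to −2901 came nearest to the threshold, at 15.4% and 17.1%. No protein-coding gene lies in the 7217 bp upstream of FLO1, a longer gap than that of 99.9% of genes.

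FLO9 (YAL063C, chromosome I, 24000 to 27968, minus strand), at the other end of the same chromosome, had 4 open steps of 33, the most of the 5 genes. They formed 2 pairs. The pair nearer the gene held 35.3% (26.8–44.6) for CCMT and 43.3% (37.5–49.2) for GCMT from −800 to −701, the same distance as the open step of FLO1. From −700 to −601 the levels were 23.6% and 23.4%, and in the step on the far side, from −900 to −801, they were 23.6% and 17.5%, which did not reach the threshold for GCMT. The farther pair held 34.3% and 27.5% from −2000 to −1901, and 21.8% and 41.2% from −1900 to −1801. The nearest start codon of another gene, GDH3 for a glutamate dehydrogenase, is 1599 bp beyond that pair. A replication origin, ARS104, lies from −3215 to −2978, with a level of 9.04% for CCMT over 177 reads and 20.3% for GCMT over 384 reads, so the libraries gave different levels there over different cytosines.

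FLO5 (YHR211W, chromosome VIII, 525392 to 528619, plus strand) had 3 open steps of 30, side by side at the far end of the stretch. Levels from −3500 to −3401 were 29.8% for CCMT and 28.2% for GCMT, and from −3400 to −3301 they reached 32.9% (27.8–38.4) and 36% (29.1–43.4). From −3300 to −3201 they were 26.7% and 23.5%. The nearest of these bases is 155 bp upstream of the start codon of YHR210C, which is read away from FLO5, so the accessible DNA is nearer to that gene than to the flocculin. The step from −2500 to −2401 had 36.5% (23.6–51) for CCMT over 52 reads and 26.9% (20.2–34.4) for GCMT over 160 reads, but holds only 2 CC cytosines, under the minimum for a call. Between −3200 and −1 no measured step of FLO5 was open. The highest measured one ran from −700 to −601, with 18.3% (14–23.3) for CCMT and 28.8% (17.1–43.1) for GCMT, 1.92 times the nuclear level in the lower library and just under the threshold.

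FLO10 (YKR102W, chromosome XI, 646356 to 649865, plus strand) had 2 open steps of 29, next to each other. From −1000 to −901 the levels were 25.3% for CCMT and 26.2% for GCMT, and from −900 to −801 they were 41.2% (31.5–51.4) and 32.7% (26.7–39.3). The step from −700 to −601 was just outside the threshold, at 19% in both libraries and 1.83 times the nuclear level in the lower library. The gene upstream is SIR1, which encodes a silencing protein, and ends 3852 bp from the start codon. A replication origin, ARS1123, overlaps the far end of the stretch from −3629 to −3383, with 16.2% for CCMT and 22.5% for GCMT.

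FLO11 (YIR019C, chromosome IX, 389572 to 393675, minus strand) had 2 open steps of 33, far apart. From −1300 to −1201 the level was 31.6% (26.6–37.1) for CCMT over 316 reads and 48.8% (40.8–56.8) for GCMT over 160 reads. Those intervals do not overlap, and it is the highest GCMT value of any open step. The other open step ran from −3500 to −3401, with 35% and 23.6%. The 5′ end of the non-coding RNA ICR1, at −3407, falls inside this step, and most of the step lies between it and the start codon of MRS1, a gene for a mitochondrial splicing factor read in the opposite direction, which is 119 bp beyond the step. FLO11 is the only one of the 5 with annotated genes in its upstream stretch. ICR1 covers −3407 to −209 on the same strand and is known to be transcribed across the FLO11 promoter, and PWR1 covers −3264 to −2324 on the other strand and is known to oppose ICR1. Over ICR1 the level was 9.52% for CCMT and 11.2% for GCMT, over PWR1 8.86% and 8.01%, and over the small reading frame YIR020C (−882 to −580) 9.09% and 9.6%. The open step at −1300 is inside the span of ICR1 and stood more than 3 times above its mean level in both libraries. It lies 319 bp upstream of the start codon of YIR020C and 1201 bp from that of FLO11. After the stop codon, the last of the 3 downstream steps of FLO11, which starts at 4304, was open as well, at 23.1% and 25.5%. It was the only downstream step called open. However, no downstream step of FLO1 or FLO5, and not all of FLO9 and FLO11, had enough cytosines and reads for a call. The first of FLO1 had 46.7% for CCMT on 2 CC cytosines, under the minimum. No share over all genes is given for downstream steps.

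Low steps, at 0.5 times the nuclear level or less in both libraries, numbered 3 of 152 (1.97%), against 4.23% over all genes. FLO11 had 2 of them and FLO10 had 1. The share of low steps was 3.29% for genes near chromosome ends and 2.63% for genes with long upstream DNA.

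Single cytosines in the open steps reached higher levels. In the GCMT library, 8 of 10 reads were methylated at −779 of FLO9 (80%, 44.4–97.5), and 10 of 14 at −1282 of FLO11 (71.4%, 41.9–91.6). At −770 of FLO1, 7 of 11 reads were methylated (63.6%, 30.8–89.1). In the CCMT library, 13 of 26 reads were methylated at both −885 and −846 of FLO10 (50%, 29.9–70.1), and 18 of 35 at −3463 of FLO11 (51.4%, 34–68.6). The intervals of single cytosines are wide at these depths, and the steps are the firmer values.

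The 2 enzymes share only the cytosines in GCC as targets, and placed the high steps alike. Over the steps of a gene, the Pearson correlation of the CCMT with the GCMT level was 0.79 for FLO1 (27 steps), 0.80 for FLO5 (30), 0.66 for FLO9 (33), 0.79 for FLO10 (29) and 0.77 for FLO11 (33). The median over all genes with 25 steps or more was 0.70, with quartiles of 0.58 and 0.79. These correlations are descriptions, since neighbouring steps share chromatin and both libraries share the strain. They include the shared cytosines in GCC and were not computed without them. A cytosine in GCC is a target of both enzymes, and where both libraries listed it the GCMT level was higher in 5 of 5 genes, for example 15.4% (13.2–17.9) against 9.14% (7.87–10.5) over 70 cytosines in FLO9. The same order held over 176468 such cytosines of the nuclear genome, at 10.9% and 7.33%. With all GCC cytosines left out, 7 steps of 131 measured were open (5.34%, where the background was then 8.26%), against 12 of 152 with them. Of the 12, 3 had too few cytosines or reads left to be measured. FLO9 then fell from 4 open steps to 1, at −2000 to −1901, and its step from −800 to −701 kept 2 CC cytosines, with 42.1% for CCMT and 43.7% for GCMT.

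The upstream regions were covered nearly in full. All 1159 reference CC cytosines upstream were listed (100%, interval from 99.7), and 1313 of 1318 GC cytosines (99.6%, 99.1–99.9). Every 75-base window of bisulfite-converted sequence over these cytosines occurred once in the genome, 75 bases being the read length. Over the whole 3500 bp, the level pooled over the 5 genes was 11.3% (11–11.6) for CCMT and 12.2% (11.7–12.7) for GCMT, and the medians of all genes were 9.69% and 10.5%. In CCMT order, FLO11 was at 10.3% (9.67–11), FLO10 at 10.4% (9.65–11.2) and FLO1 at 10.5% (9.82–11.3), with overlapping intervals. FLO5 at 12.8% (12–13.5) and FLO9 at 12.8% (11.9–13.7) stood above those 3 and overlapped each other. In the GCMT library FLO10 had 10.3% (9.37–11.3), FLO1 10.5% (9.49–11.6), FLO11 11.3% (10.2–12.4) and FLO5 12.3% (11.3–13.4), each overlapping its neighbour in this order. FLO9 stood apart at 15.8% (14.7–16.9).

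Next to the start codon, from −250 to −101, where most yeast promoters are accessible, the flocculin genes were low. For CCMT, FLO10 had 5.22% (2.13–10.5), FLO9 5.53% (2.89–9.46), FLO11 6.3% (3.57–10.2) and FLO1 6.98% (4.43–10.4), and these 4 cannot be ordered within their intervals. FLO5 had 15.4% (11.8–19.5), above the intervals of the other 4. The median of all genes was 17.9%, with quartiles of 11.8 and 24.7. For GCMT, FLO1 had 5.83%, FLO11 7.28%, FLO5 8.82%, FLO10 9.52% and FLO9 11.6%, with overlapping intervals, against a median of 19.3% and quartiles of 12 and 27.6. The value of FLO5 rests on 3 cytosines and 34 reads. Thus 4 of the 5 genes lay under the lower quartile of all genes in both libraries, as did 15.4% of all genes. For GCMT, however, the intervals of FLO9 (6.47–18.7), FLO10 (5.31–15.5) and FLO11 (3.69–12.7) reach past that quartile. Against the genes near chromosome ends, whose medians were 13.1% and 14.1%, 4 members lay below the lower quartile for CCMT and 2 for GCMT. Against the genes with long upstream DNA the counts were also 4 and 2. In both libraries at once, 2 members lay below for either set.

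**Figure D2:**
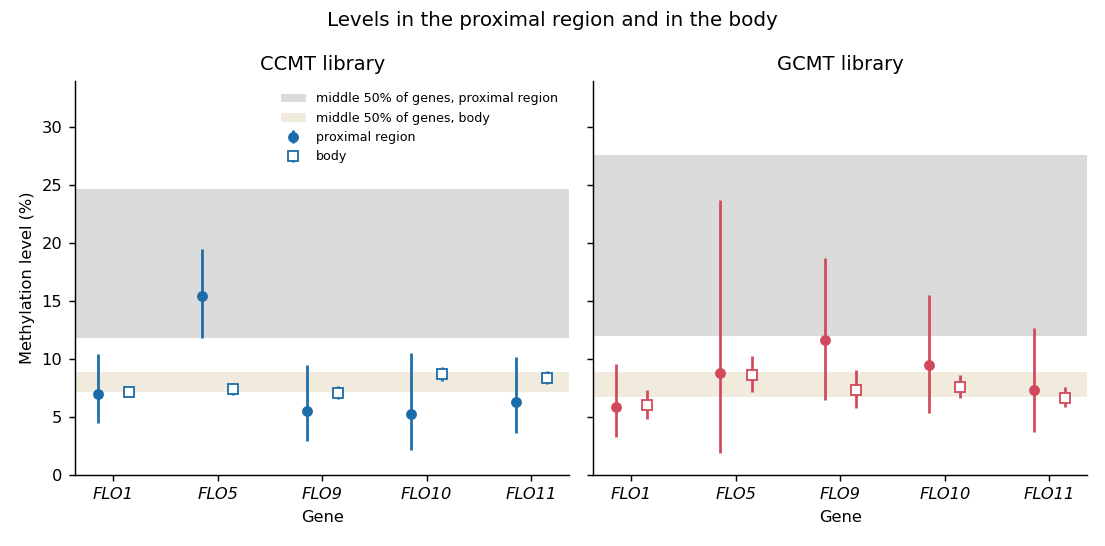
Methylation level (%) of the proximal region, −250 to −101 (filled circles), and of the body (open squares) of each gene, one panel per library, with exact 95% intervals. Bands span the quartiles of all nuclear protein-coding genes, 11.8 to 24.7 for CCMT and 12 to 27.6 for GCMT upstream, and all upstream circles but that of FLO5 for CCMT lie below them.

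The bodies stood at the usual level of coding sequence. The pooled level was 7.72% (7.48–7.95) for CCMT and 7.15% (6.66–7.68) for GCMT, with medians over all genes of 7.87% and 7.69%. For CCMT, FLO9 had 7.08% (6.55–7.63), FLO1 7.16% (6.69–7.66), FLO5 7.41% (6.93–7.92), FLO11 8.36% (7.8–8.94) and FLO10 8.7% (8.14–9.29), and each overlapped its neighbours in this order. For GCMT the levels ran from 6% (4.83–7.36) in FLO1 to 8.62% (7.16–10.3) in FLO5, all with overlapping intervals. None of 103 measured body steps was open, and 0.517% of the body steps of all genes were. The highest by the smaller of its 2 folds stood at 1.23 times the nuclear level. In the GCMT library alone, the step from 1100 to 1199 of FLO10 reached 1.97 times. The proximal region exceeded the body in both libraries in 1 of the 5 genes, FLO5, against 81.3% of all genes, and for GCMT the levels of FLO5 differ by less than their intervals (8.82% and 8.62%). With the proximal region taken from −300 to −1 no member did, and from −500 to −101, 3 members did (84.9% and 82.5% of all genes).

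The bodies were listed less completely than the upstream DNA, mostly where their sequence recurs. Of 1816 reference CC cytosines in the bodies 1581 were listed (87.1%, 85.4–88.6), and of 1482 GC cytosines 869 were (58.6%, 56.1–61.2), whereas all genes had medians of 100% and 98.9%. The repeat part, the bases covered by 20-base words that recur in the same coding sequence, made up 50.9% of FLO11, 47.8% of FLO1, 36.7% of FLO9, 31.3% of FLO5 and 25.3% of FLO10, each more than in at least 99.7% of genes. The commonest spacing between copies was 135 bp in FLO1, FLO5 and FLO9, 189 bp in FLO10 and 81 bp in FLO11. One copy per gene is printed, because the units recur and their cytosines were the least listed in FLO1 and FLO9. FLO1 and FLO9 share the same 135 letters, in 10 tandem copies at 80% identity or more from base 854 to base 2203 of each. FLO5 had 7 such copies, FLO10 had 4 and FLO11 had 3.
FLO1, 1124 to 1258, chrI:204527-204661, plus strand: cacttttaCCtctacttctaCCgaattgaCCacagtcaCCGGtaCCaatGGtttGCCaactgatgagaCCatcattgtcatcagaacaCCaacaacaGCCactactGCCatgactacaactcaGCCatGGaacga
FLO5, 978 to 1112, chrVIII:526370-526504, plus strand: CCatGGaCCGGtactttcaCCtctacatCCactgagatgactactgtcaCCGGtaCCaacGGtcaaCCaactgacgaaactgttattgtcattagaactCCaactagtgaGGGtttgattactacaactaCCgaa
FLO9, 1124 to 1258, chrI:26710-26844, minus strand: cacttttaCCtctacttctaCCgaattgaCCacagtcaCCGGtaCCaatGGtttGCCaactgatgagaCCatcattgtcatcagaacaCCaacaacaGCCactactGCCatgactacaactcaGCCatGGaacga
FLO10, 1113 to 1301, chrXI:647469-647657, plus strand: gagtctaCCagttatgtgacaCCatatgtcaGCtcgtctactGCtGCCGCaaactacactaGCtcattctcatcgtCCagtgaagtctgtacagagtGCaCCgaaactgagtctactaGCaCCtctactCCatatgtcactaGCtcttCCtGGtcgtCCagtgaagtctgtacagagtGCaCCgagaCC
FLO11, 1314 to 1394, chrIX:392281-392361, minus strand: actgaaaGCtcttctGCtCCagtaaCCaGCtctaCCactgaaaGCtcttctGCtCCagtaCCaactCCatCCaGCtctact

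FLO1 and FLO9, which share their repeat unit, were the least completely listed. In the repeat part of FLO9, 99 of 163 CC cytosines were listed (60.7%) and 1 of 83 GC cytosines (1.2%), and in that of FLO1, 147 of 244 (60.2%) and 9 of 97 (9.28%). FLO11 had 140 of 200 (70%) and 127 of 274 (46.4%). FLO10 had all 62 CC cytosines and 28 of 76 GC cytosines (36.8%). Those of FLO5 were listed in full in both libraries, with 120 CC cytosines but no more than 10 GC cytosines in 1010 bp. In FLO5 the unlisted GC cytosines lay outside the repeat part, where 110 of 180 were listed (61.1%). The GCMT levels of the repeat parts rest on 8 reads in FLO9, 118 in FLO5, 119 in FLO1, 273 in FLO10 and 1409 in FLO11, where the level was 6.17% (4.97–7.56).

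**Figure D3:**
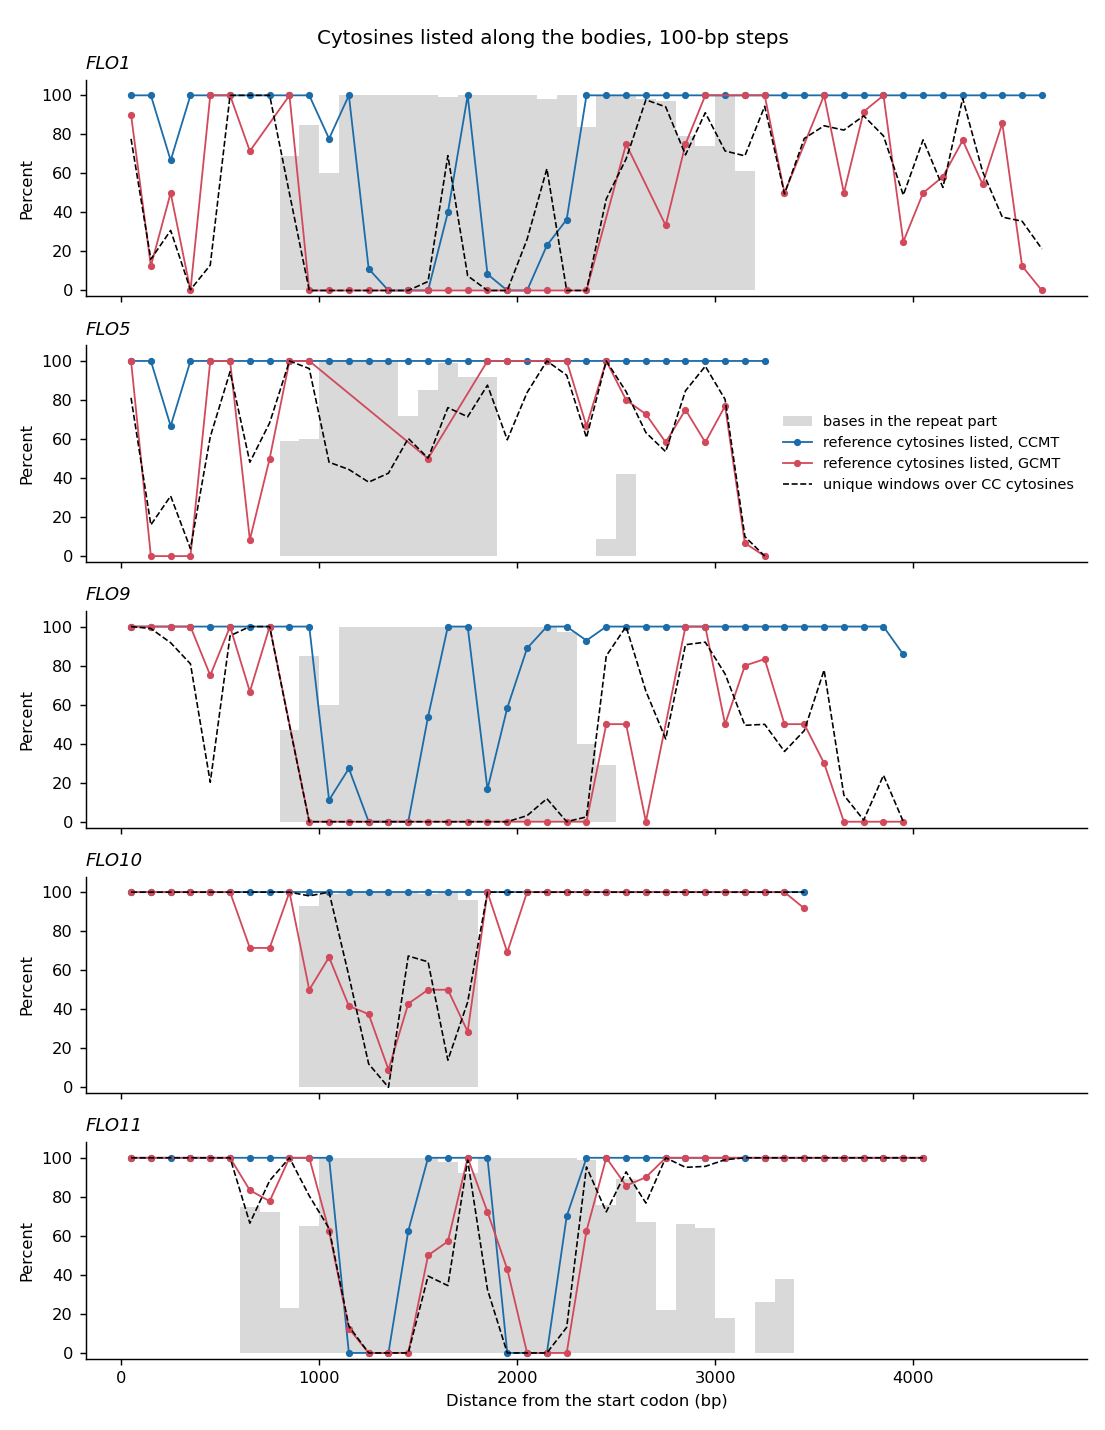
Percent of reference cytosines listed per 100-bp step (points, by library) and percent of 75-base converted windows over CC cytosines that occur once in the genome (dashed line), against the distance from the start codon (bp), with the percent of bases in the repeat part in grey. Steps without a reference cytosine have no point. The GCMT points are at 0 through most of the repeats of FLO1 and FLO9, and CCMT lists some cytosines there that no unique window covers.

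The window count separated within-gene repeats from likeness between genes. In FLO10 and FLO11 every repeated window recurred in the same body alone, and the windows found once made up 88.5% and 74.3%. In FLO9 40.7% of windows were found once, and in FLO1 50.5%. FLO9 shared 47.3% of its windows with FLO1 and 8.02% with FLO5, and FLO1 shared 39.3% of its windows with FLO9 and 11.5% with FLO5. FLO5 stood between, with 66% found once. A further 11.3% of the windows of FLO9, 5.56% of those of FLO5 and 3.22% of those of FLO1 also occurred outside the 5 bodies.

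**Figure D4:**
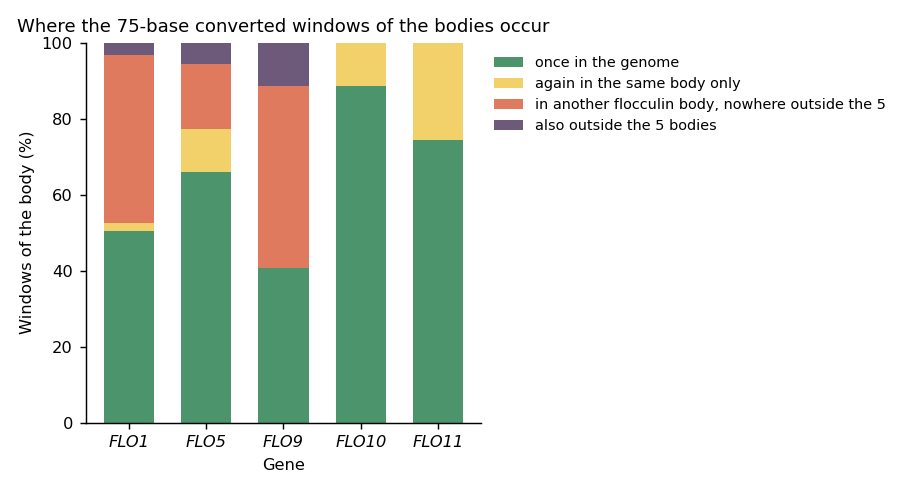
Share (%) of the 75-base converted windows of each body, both strands, that occur once in the genome, again in the same body alone, in another flocculin body, or also outside the 5 bodies. Windows found once range from 40.7% in FLO9 to 88.5% in FLO10.

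The likeness between genes also covered part of the N-terminal coding sequence. Over the first 600 bp the identity was 91.5% between FLO1 and FLO5, 88.2% between FLO5 and FLO9, 86.2% between FLO1 and FLO9, and 70 to 70.2% between FLO10 and these 3. The first 100 bases of FLO1 and FLO5 are printed to show the match, which becomes unbroken towards their end. In the next 3 steps (from base 100 to base 399) GCMT listed 1 of 8, 1 of 2 and 0 of 6 cytosines in FLO1, and 0 of 8, 0 of 2 and 0 of 6 in FLO5.
FLO1, 0 to 99, chrI:203403-203502, plus strand: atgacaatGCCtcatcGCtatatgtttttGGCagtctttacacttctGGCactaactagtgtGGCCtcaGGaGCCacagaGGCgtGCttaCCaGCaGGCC
FLO5, 0 to 99, chrVIII:525392-525491, plus strand: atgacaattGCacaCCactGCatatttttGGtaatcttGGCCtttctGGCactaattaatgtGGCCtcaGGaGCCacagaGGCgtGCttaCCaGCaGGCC

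At cytosines that no unique window covered, the libraries differed. CCMT listed 79 of 157 of them in FLO1, 26 of 29 in FLO5, 111 of 180 in FLO9, 18 of 18 in FLO10 and 11 of 66 in FLO11. GCMT listed none of 84 in FLO1, 32 in FLO5, 126 in FLO9, 18 in FLO10 and 97 in FLO11. Over the nuclear genome, CCMT listed 20.9% of 47429 such cytosines and GCMT 0.298% of 42938. Where every window was unique the shares were 99.8% and 97.9%. The methods do not say how reads with several matches were treated, and the part of read placement, insert length and depth in this difference was not tested. Restricted to cytosines with every window unique, 99.7% of the CC and 93.4% of the GC cytosines of the bodies were listed.

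Matches to binding sequences of transcription factors were counted upstream of the 5 genes. CATTCT (Tec1, both strands) occurred 4 times upstream of FLO5, 1 time upstream of FLO9, 4 times upstream of FLO10, 5 times upstream of FLO11 and not upstream of FLO1, and 93.1% of the 5990 upstream regions of 3500 bp hold it, with a median of 2 per region. TGAAACA (Ste12) occurred 2 times upstream of FLO1 and 1 time in each of the others (61.7% of regions, median of 1), and CCCCT (Nrg1 and Msn2) 3 times for FLO5, 2 times each for FLO10 and FLO11, 1 time for FLO9 and not for FLO1 (90.6%, median of 2). TTACCCG (Reb1) and TGACTCA (Gcn4) had no match in any of the 5 (25.6% and 26.5% of regions hold them). Of 28 matches, 26 lay in measured steps and 3 of these in open ones (11.5%, where 7.89% of the measured steps of these genes were open), and nothing is read from so few matches. These were CATTCT at −818 of FLO10 and at −3437 of FLO11, both on the strand opposite to the gene, and CCCCT at −3312 of FLO5. Those of FLO10 (as AGAATG) and FLO5 lie in the printed steps of these genes. A match is a string of letters and does not show binding.

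Open steps were more numerous upstream of some of the genes that regulate flocculins. Among 15 regulators, with FLO8 measured in the same way from its annotated span, 83 of 473 measured upstream steps were open (17.5%), more than 2 times the background of 8.15%. This list was chosen with earlier results of these data known, so the difference is a description only. The share was 12.3% for genes with at least 2 kb of DNA outside protein-coding genes upstream. The regulators differed widely, from 1 to 13 open steps per gene. Open steps numbered 13 of 32 at PHD1, 11 of 34 at MGA1, 10 of 32 at NRG1 and 9 each at TEC1, SOK2 and CYC8. PHD1 and SOK2 encode related factors of filamentous growth, MGA1 a protein similar to heat shock factors, NRG1 a glucose-dependent repressor, TEC1 the partner of Ste12 and CYC8 the corepressor that works with Tup1. HDA1 (histone deacetylase), TUP1, MSS11 and SFL1 had 2 each, MSN1 and FLO8 had 1 each, and STE12, TPK2 and NRG2 had 3, 3 and 6. The proximal region exceeded the body in both libraries in 10 of the 15, against 81.3% of all genes. It did so in 3 of 4 other cell wall adhesins (AGA1, FIG2 and SAG1, but not AGA2, all mating agglutinins or relatives). The adhesins had 8 open steps of 130 (6.15%).

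The upstream patterns of the 5 genes were not alike. Over the step values of both libraries, the Pearson correlation between 2 flocculin genes ran from −0.14 (FLO1 and FLO11, 59 values) to 0.37 (FLO1 and FLO9, 59 values). The genes most alike, among 5217 compared, were YGR109W-B and YGR109W-A for FLO1 (0.70 each, sharing one upstream region) and RPL18B (0.63). For FLO5 they were PMT3 (0.72), SRT1 (0.70) and BFR2 (0.68), and for FLO9 RBA50 (0.56), YGR161W-B and YGR161W-A (0.54 each). For FLO10 they were YPL108W (0.80), HSP12 (0.65) and RAD10 (0.64), and for FLO11 BUB1 (0.68), PGU1 (0.67) and ATP14 (0.64). Each value is the highest among all those genes and rests mainly on the position of the few high steps.

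Between −1500 and −1, the highest step lay at −800 in FLO1 and FLO9, −700 in FLO5, −900 in FLO10 and −1300 in FLO11, all farther than 600 bp from the start codon. This count of 5 of 5 was chosen after the values were seen. Of 327 other genes with no protein-coding gene in that stretch, 41.6% had their highest step as far away. FLO11 has such a gene there, YIR020C from −882 to −580, and does not meet the condition set for those genes.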

How the data were processed

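NOMe-Seq libraries of fixed S288C nuclei were made by tPBAT, 1 per enzyme. Formaldehyde and NP40 concentrations are those of the labels, which the methods do not match, and a supplementary list names another sample for CCMT. The label was followed here. The authors used BMap to map paired reads of 75 bases to sacCer3, followed by their own pipelines. Versions, read filters, multiple matches and duplicates are not given in the sources used here. The authors deposited a read count and a methylation level as a fraction from 0 to 1 for each cytosine with at least 5 reads. The product of the deposited count and fraction was whole to within 0.0024, which gave the methylated reads. All listed cytosines stood in CC or GC of the R64 genome, which was therefore used.

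Levels were pooled over reads. Summed over listed nuclear cytosines, the read counts were 28485123 (CCMT) and 10967078 (GCMT), so GCMT values are less precise. A read is counted at each listed cytosine that it covers. Uniqueness was counted over 75-base windows of the C-to-T converted genome on both strands. Named were the members, 15 regulators, 4 adhesins, annotated overlapping genes, the 3 genes most alike in upstream pattern, open steps and the highest step. Members and lists were chosen with earlier results of these data known. Alternatives were a coverage minimum of 10, other folds, steps shifted by 50 bp, means of single-cytosine levels, leaving out GCC cytosines, unique cytosines alone, and bases outside protein-coding genes. The step calls were tested on simulated data, with independent reads and a flat background outside the raised steps. The rate of false calls in real upstream DNA was not tested. Software was scipy 1.17.1, numpy 2.4.6, pandas 2.3.3, matplotlib 3.10.9 and Biopython 1.88 under Python 3.11.15.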

Additional observations from a re-analysis of the deposited data

How the results depend on the processing

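Of 48 alternative values, 32 stayed within the interval of the main value, or within 1.5 times the main count. With a coverage minimum of 10 reads, the listed share fell to 99.5% (CCMT) and 84.8% (GCMT) upstream and to 81.4% and 33.3% in the bodies. Without GCC cytosines, the upstream level was 11.8% for CCMT and 11.7% for GCMT. With only cytosines whose windows were all unique, the CCMT body level was 8.11% and the listed shares of the bodies were 99.7% and 93.4%. Open upstream steps numbered 20 at 1.5 times the nuclear level (13.2% of measured steps, against 12.2% over all genes). At 3 times they numbered 5, 1 in each gene (3.29% against 2.26%). Without GCC cytosines, where fewer steps could be measured, they numbered 7 (5.34% against 8.26%). The number of genes with the proximal region above the body, 1 as reported, was 0 with a coverage minimum of 10 (4 genes measured), with unique cytosines alone and with the region from −300 to −1, and 3 with the region from −500 to −101. These settings, and those for the steps from −600 to −1, were chosen after seeing the data, and none of them gave an open step in that stretch. No paired analysis was possible because there was 1 library per enzyme. The GCMT values of the bodies rest on 9980 reads over 869 cytosines.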
